A study of Mus musculus with 6 samples.

Results

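Angiogenic and antiangiogenic factors are secreted proteins, and a receptor for them, that promote or hold back the growth of blood and lymphatic vessels. They were examined in the corneal epithelium of mice that lack the NF-κB subunit RelA in this layer. The set was chosen by name and holds 10 genes: the VEGF family ligands *Vegfa*, *Vegfb*, *Vegfc*, *Vegfd* and *Pgf*, the VEGF receptor *Flt1*, the vasodilator peptide gene *Adm*, the lipase inhibitor gene *Angptl4*, and the antiangiogenic genes *Thbs1* and *Serpinf1*. The deposited table lists 9 of these 10 among its 17554 genes, and *Vegfc* was not analysed here. RNA was sequenced from the separated corneal epithelial layer of 2-month-old mice on a C57BL/6 background, with 3 samples from control mice (WT in the labels) and 3 from *Krt14-Cre; Rela f/f* mice (Rela-/- in the labels), in which Cre recombinase driven by the keratin 14 promoter removes *Rela*. Keratin 14 marks basal epithelial cells, and this Cre line is also active in the limbus, conjunctiva, meibomian gland, skin and oral mucosa. Whether the control mice carried Cre or floxed alleles, and how many mice gave each sample, is not given in the sources used here.

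The cornea is transparent and normally free of vessels, and its epithelium makes both kinds of factor. VEGF-A drives the growth of blood vessels through the receptor tyrosine kinase VEGFR2, while VEGFR1, encoded by *Flt1*, binds VEGF-A, VEGF-B and placental growth factor, and its soluble form acts as a trap for VEGF-A in the cornea. Thrombospondin 1 and pigment epithelium-derived factor, encoded by *Thbs1* and *Serpinf1*, hold vessel growth back. *Vegfa*, *Adm* and *Angptl4* are textbook targets of hypoxia-inducible factors, and *Angptl4* is also a target of the PPAR fatty acid receptors.

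The stretches upstream of *Vegfa* and *Adm* are shown because these were the members that passed the test between genotypes. Each is 250 bases long, ends at the base before a RefSeq transcription start on GRCm38.p6, and reads 5′ to 3′ on the strand of the gene. The *Vegfa* stretch is chr17:46032378-46032627 on the minus strand, directly beside the gene edge given in the deposited table, and the capitals mark a match to the κB consensus. The *Adm* stretch is chr7:110627407-110627656 on the plus strand, and its start lies 1376 bases inside the gene as deposited. In *Adm* the capitals mark GCGTG, a hypoxia response element core, read on the opposite strand.
Vegfa: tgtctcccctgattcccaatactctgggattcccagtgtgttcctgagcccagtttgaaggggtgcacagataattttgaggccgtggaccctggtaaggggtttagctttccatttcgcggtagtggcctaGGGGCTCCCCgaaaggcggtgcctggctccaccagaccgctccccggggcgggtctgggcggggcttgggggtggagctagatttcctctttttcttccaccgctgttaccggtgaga
Adm: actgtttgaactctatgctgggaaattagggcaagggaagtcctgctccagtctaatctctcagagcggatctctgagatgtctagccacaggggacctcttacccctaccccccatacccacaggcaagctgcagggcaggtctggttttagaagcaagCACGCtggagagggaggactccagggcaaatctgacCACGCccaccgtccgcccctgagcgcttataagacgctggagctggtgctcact
The κB match of *Vegfa* lies 118 to 109 bases before the start, and neither hypoxia core, ACGTG or GCGTG, was found in that stretch on either strand. A second RefSeq start of *Vegfa* lies 7214 bases inside the gene as deposited. The stretch upstream of it, itself within the gene, has 1 ACGTG and 1 GCGTG. The *Adm* stretch holds 2 GCGTG cores, 90 to 86 and 54 to 50 bases before the start, and no κB match. Over 32851 RefSeq promoters of the same length, 38.6% held ACGTG or GCGTG and 5% held a κB match, both strands read. Of the 9 listed members, 7 had a promoter in the RefSeq table. Upstream of the others, *Vegfb* had 2 GCGTG cores, *Serpinf1* had 1 ACGTG, *Pgf* had 1 core, and *Flt1* had 1 core and 1 κB match. *Vegfd* had neither a core nor a κB match. Both *Flt1* and *Vegfd* had a TATAAA box, which 12.4% of promoters hold. A match of letters is a description of the stretch and not a bound site.

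Read totals were alike, 19492942 to 19733834 estimated counts per sample, so that 3 counts equal 0.152 to 0.154 CPM, counts scaled to library size. *Rela* itself was at 36.5, 34.7 and 33.4 FPKM (reads scaled by gene length and by library size) in control samples 1 to 3 and at 4.93, 5.53 and 5.72 in mutant samples 1 to 3 (log2 fold change -2.75, SE 0.085, edgeR adjusted p = 5.5e-07). The corneal keratin *Krt12* was at 18270 ± 1148 FPKM in the mutants (SD, n = 3), and its difference did not pass the test (log2 fold change -0.15, SE 0.08, edgeR adjusted p = 0.26). Of 10 corneal epithelial markers 1 was called higher in the mutants, *Krt14* (log2 fold change 3.32, SE 0.18), and 1 lower, *Aldh3a1*. Of 6 tested conjunctival and epidermal markers none was called higher and 2 were called lower, *Krt13* and *Krt8*. Mutant sample 1 stood apart in *S100a9*, which encodes a protein of neutrophils and stressed keratinocytes. This gene was at 1401 FPKM there against 273 and 201 in the other mutants and at most 6.51 in the controls. Other immune markers did not all follow. Among the mutants *Itgam* was highest there (94.8 against 64.4 and 51 FPKM). So were *Lyz2* (24 against 13 and 4 counts), *Ptprc* (14 against 2 and 9) and *Csf1r* (16 against 7 and 10). *Cd68* and *Cd79a* were highest there by small margins. *Ly6g* was lowest there by a small margin (1.81 against 1.94 and 2.03 FPKM, or 31 against 33 and 35 counts). *Adgre1*, *Cd3e* and *Cd207*, with at most 5 counts in any mutant, were not highest there.

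Of the 6 members with enough counts to test, 2 were called higher in the mutants, *Vegfa* and *Adm*, 0 were called lower and 4 were not called. A call is an adjusted p under 0.05 from edgeR's quasi-likelihood fit, where p was adjusted by Benjamini-Hochberg across the 12667 genes tested. Over all these genes 7.82% were called higher, 5.42% lower and 13.2% either way, and the median log2 fold change was -0.003. The other 3 listed members, *Pgf*, *Flt1* and *Serpinf1*, fell below the count filter. FPKM groups did not overlap for 3 of the 9 listed members, *Vegfa*, *Adm* and *Serpinf1*, against 32.6% of the genes tested.

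**Figure D1:**
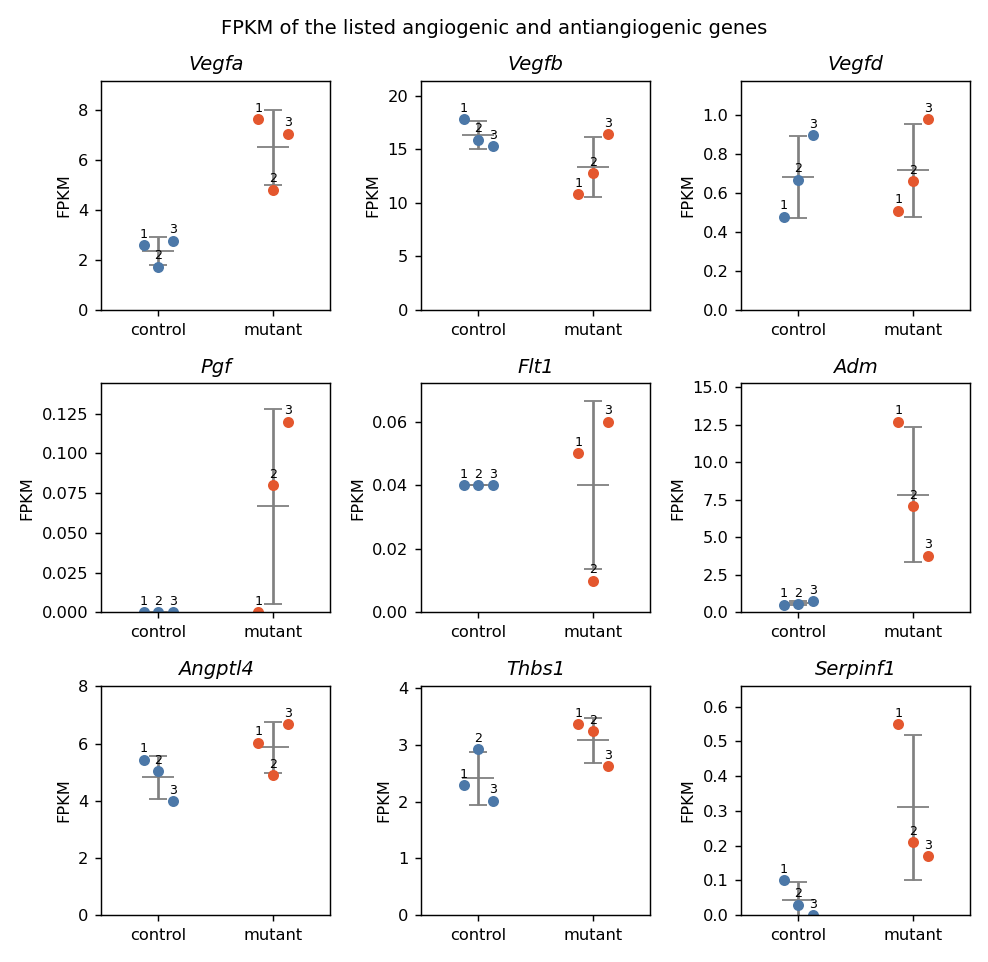
FPKM of each listed member by sample, 1 panel per gene, with control and mutant samples as points numbered by replicate and grey bars for mean ± SD (n = 3). *Vegfa* and *Adm* separate the genotypes, from at most 2.77 to at least 4.81 FPKM and from at most 0.78 to at least 3.78, whereas *Vegfb*, *Vegfd*, *Thbs1* and *Angptl4* overlap.

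*Vegfa* (gene 22339, GRCm38 chr17:46016993-46032377, minus strand), the main growth factor for blood vessels, was at 2.6, 1.73 and 2.77 FPKM in control samples 1 to 3 and at 7.62, 4.81 and 7.04 in mutant samples 1 to 3. The lowest mutant sample was above the highest control sample. The means rose from 2.37 ± 0.56 to 6.49 ± 1.5 FPKM (SD, n = 3 each), a log2 fold change of 1.51 (SE 0.21, 95% interval 1.05 to 1.97, edgeR adjusted p = 0.0014), or 2.85-fold. In a bulk sample, more cells that express a gene and more RNA per cell cannot be told apart, here and for every member below. Without mutant sample 1 the log2 fold change was 1.36 (edgeR adjusted p = 0.0019).

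*Vegfb* (gene 22340, chr19:6982472-6987651, minus strand), a VEGFR1 ligand linked to fatty acid uptake and the survival of vessels, was at 17.8, 15.9 and 15.3 FPKM in control samples 1 to 3 and at 10.8, 12.8 and 16.4 in the mutants. Mutant samples 1 and 2 lay below every control sample and mutant sample 3 lay within the control range. The log2 difference was -0.29 (SE 0.14, 95% interval -0.60 to 0.02, edgeR adjusted p = 0.2), and it did not pass the test. Mutant sample 3 decided this call: without it the log2 difference was -0.45 and the edgeR adjusted p was 0.044.

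*Vegfd* (gene 14205, chrX:164373000-164402650, plus strand), a ligand for the lymphatic receptor VEGFR3, was at 0.48, 0.67 and 0.9 FPKM in controls and at 0.51, 0.66 and 0.98 in mutants, resting on 18 to 33 counts per sample. The groups overlapped and the log2 difference was 0.03 (SE 0.31), with a 95% interval of -0.68 to 0.73 that leaves room for changes of either sign. *Pgf* (gene 18654, chr12:85166637-85177785, minus strand), which encodes placental growth factor, had 0 counts in all 3 controls and 0, 2 and 3 counts in mutants 1 to 3, so a difference was not detectable at this depth.

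Within each sample the FPKM of the 4 measured ligands can be added, since FPKM is scaled by length. Their sum was 20.8, 18.3 and 18.9 FPKM in controls and 19, 18.4 and 24.5 in mutants, groups that overlapped (exact permutation test, two-sided, p = 0.6). *Vegfa* made up 12.5%, 9.44% and 14.6% of that sum in controls and 40.2%, 26.2% and 28.7% in mutants. *Vegfb* made up 85.2%, 86.9% and 80.6% in controls and 57.1%, 69.8% and 66.8% in mutants. The shares did not overlap between genotypes, with means of 12.2% ± 2.6 and 31.7% ± 7.5 for *Vegfa* (SD, n = 3). The exact permutation test gave p = 0.1 for both shares, the smallest value that 3 samples against 3 allow. Since *Vegfa* and *Vegfb* make up nearly all of the sum, their shares mirror each other and are not separate results. The FPKM of *Vegfb* itself overlapped between genotypes. The *Vegfd* share averaged 3.57% and 3.43%. *Vegfb* was the most abundant ligand by FPKM in all 6 samples.

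**Figure D2:**
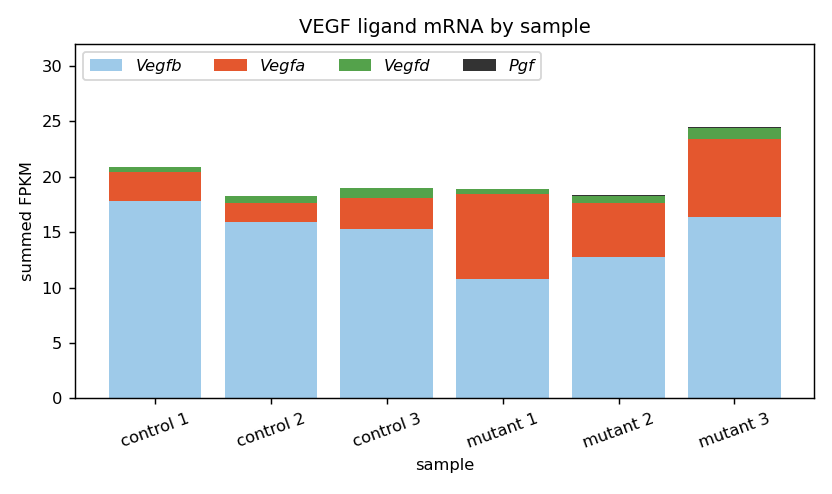
FPKM of the 4 measured VEGF ligands stacked by sample, with the axis starting at 0. The total height runs from 18.3 to 24.5 FPKM, and the *Vegfa* segment is taller in each mutant sample than in any control sample.

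Receptors for these ligands were near the detection limit. *Flt1* (gene 14254, chr5:147561606-147726005, minus strand) had 2, 5 and 5 counts in controls and 6, 1 and 8 in mutants, or at most 0.06 FPKM. Summed counts were 12 and 15, a ratio of 1.25 with an exact 95% interval of 0.545 to 2.92 that covers counting error only, so a change within that range was not detectable. *Kdr*, which encodes VEGFR2, was at 0 FPKM in the controls and at most 0.02 in the mutants, and *Flt4*, which encodes VEGFR3, was at most 0.03 FPKM in any sample. These 3 receptors are also endothelial genes, and of 13 listed endothelial markers 2 were tested and 0 called, with summed FPKM of 1.8 to 2.7 in controls and 1.56 to 2.65 in mutants, most of it *Tie1* and *Ramp2*. Of the defining markers, *Cdh5* was at 0 to 0.04 FPKM, and *Cldn5* was listed at 0 except for 0.04 in mutant sample 1. *Pecam1*, which encodes the vessel marker CD31, had 2, 2 and 5 counts in controls and 8, 7 and 14 in mutants, or 0.03, 0.03 and 0.08 against 0.13, 0.12 and 0.23 FPKM, groups that did not overlap. It was below the count filter, and tested without the filter its log2 difference was 1.63 (SE 0.59, edgeR adjusted p = 0.11), which did not pass.

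The coreceptors of these ligands were measured above the filter. *Nrp1*, a coreceptor for VEGF-A and semaphorins, was at 0.36, 0.34 and 0.21 FPKM in controls and rose to 0.69, 0.86 and 0.86 in mutants, a log2 fold change of 1.38 (SE 0.22, edgeR adjusted p = 0.0034). *Nrp2*, the neuropilin linked to VEGF-C and lymphatic vessels, was at 0.36, 0.21 and 0.22 FPKM in controls and at 0.48, 0.48 and 1.1 in mutants (log2 fold change 1.37, SE 0.35, edgeR adjusted p = 0.032). All mutant values were above all control values for both, and all levels were low. Of the 4 receptors and coreceptors beside *Flt1*, 2 were tested and both were called higher.

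*Adm* (gene 11535, chr7:110626281-110639358, plus strand) encodes adrenomedullin, a peptide that dilates vessels, is needed for lymphatic development and is induced by low oxygen. It was at 0.52, 0.53 and 0.78 FPKM in control samples 1 to 3 and at 12.7, 7.06 and 3.78 in mutant samples 1 to 3. Counts were 14, 14 and 21 against 339, 189 and 102. Every mutant sample was above every control sample, and the mutants differed among themselves more than for *Vegfa*, with sample 1 highest and sample 3 lowest. The log2 fold change was 3.68 (SE 0.46, 95% interval 2.64 to 4.72, edgeR adjusted p = 0.00093), or 12.8-fold, and it was 3.13 without mutant sample 1 (edgeR adjusted p = 0.00023). *Adm* was the 1 member past the study's own thresholds, a fold of 2 or more and an adjusted p no larger than 0.001, which 1.37% of all genes tested passed (1.31% as higher), and *Vegfa* lay just outside on p. Leaving out any 1 of the 3 control samples put *Adm* outside these thresholds too (0 members), while its adjusted p stayed at or under 0.013.

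Of the other 6 genes of the adrenomedullin system 2 were tested and 1 was called, *Ackr3*, which encodes an atypical receptor that takes up adrenomedullin and the chemokine CXCL12. *Ackr3* was at 8.3, 8.26 and 7.68 FPKM in controls and rose to 17.2, 15.6 and 13.3 in mutants, a log2 fold change of 0.93 (SE 0.11, edgeR adjusted p = 0.00072). *Ramp1*, an accessory protein of the calcitonin receptor family, had a log2 difference of -0.81 (SE 0.29, edgeR adjusted p = 0.1). *Calcrl*, the signalling receptor for adrenomedullin with RAMP2 or RAMP3, had 3 to 11 counts per sample and *Ramp2* at most 19, so neither was tested.

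*Angptl4* (gene 57875, chr17:33774900-33784072, minus strand) encodes a secreted inhibitor of lipoprotein lipase that is also linked to vessel growth. It was at 5.44, 5.03 and 3.99 FPKM in controls and at 6.03, 4.9 and 6.68 in mutants. The groups overlapped and the log2 difference was 0.28 (SE 0.15, 95% interval -0.05 to 0.62, edgeR adjusted p = 0.25). Over 9 tested genes of the 13 other PPAR targets and receptors, 1 was called higher and 4 lower, with a median log2 fold change of -0.16. *Fabp5*, a fatty acid carrier of epidermal keratinocytes, rose by 2.83 on the log2 scale (SE 0.29, edgeR adjusted p = 0.00029). The β-oxidation genes *Cpt1a*, *Acadm* and *Acaa2* fell by 0.54, 0.37 and 0.53 (SE 0.1, 0.074 and 0.077), and *Ppara* fell by 0.97. The angiopoietins, angiopoietin-like proteins and Tie receptors gave 2 tested genes of 7 listed, *Tie1* and *Angptl6*, with log2 differences of -0.66 and -0.09 and no call.

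**Figure D3:**
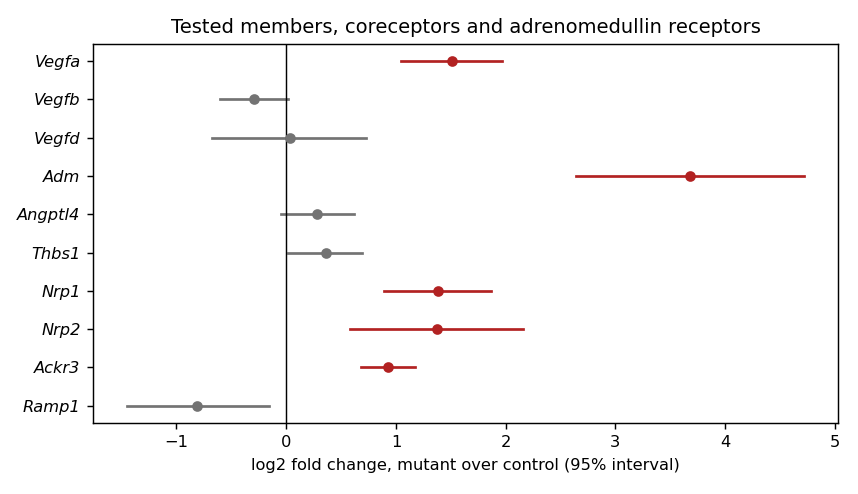
Log2 fold change of mutant over control for the 6 tested members, the coreceptors *Nrp1* and *Nrp2*, and *Ackr3* and *Ramp1* of the adrenomedullin system, with 95% intervals from the edgeR fit (n = 3 per group). Red marks an adjusted p under 0.05, grey marks the others, and the intervals are unadjusted. Those of *Adm*, *Vegfa*, *Nrp1*, *Nrp2* and *Ackr3* lie to the right of 0, as does that of *Thbs1*, which was not called. The interval of *Ramp1*, also not called, lies to the left of 0.

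*Thbs1* (gene 21825, chr2:118111876-118127133, plus strand), which encodes an extracellular inhibitor of endothelial growth, was at 2.29, 2.93 and 2.02 FPKM in controls and at 3.37, 3.25 and 2.63 in mutants. Control sample 2 lay above mutant sample 3, so the groups overlapped. The log2 difference was 0.36 (SE 0.15, 95% interval 0.02 to 0.69), which did not pass the test after adjustment (edgeR adjusted p = 0.16). In the annotation 3.42% of its exon bases overlap *Gm29233* on the opposite strand, and how strand was handled in counting is not given in the sources used here. The *Vegfa* to *Thbs1* ratio of FPKM was 1.14, 0.59 and 1.37 in controls and 2.26, 1.48 and 2.68 in mutants, with all mutant ratios above all control ratios. Its mean was 1.03 ± 0.4 in controls and 2.14 ± 0.61 in mutants (SD, n = 3), and the exact permutation test of the log2 ratio gave p = 0.1, the smallest the design allows.

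*Serpinf1* (gene 20317, chr11:75410029-75422623, minus strand), which encodes the antiangiogenic protein PEDF, had 3, 1 and 0 counts in controls and 16, 6 and 5 in mutants, or 0.1, 0.03 and 0 against 0.55, 0.21 and 0.17 FPKM. Every mutant sample had more counts than every control sample, and the gene was below the count filter. Summed counts were 4 and 27, a ratio of 6.74 with an exact 95% interval of 2.35 to 26.5 for counting error only. Tested without the filter it had a log2 difference of 2.64 (edgeR adjusted p = 0.071), which did not pass. *Serpinf1* is also made by fibroblasts, and keratocyte and fibroblast markers moved with genotype. Of 4 tested, 2 were called higher, *Fbln1* and *Dcn*, and 1 lower, *Pdgfra*. *Dcn* passed the count filter only through the mutants, so its call is not independent of the filter. Without the filter, over all 12 listed markers, 4 were called higher and 1 lower, with a median log2 fold change of 1.33. The summed FPKM of the markers was 19.8 to 22.2 in controls and 41.5 to 50.8 in mutants. Most of that sum was *Fbln1*. Without it the other 11 markers summed to 300, 343 and 341 counts in controls and 384, 314 and 197 in mutants, groups that overlapped. *Pdgfra*, a fibroblast receptor with 270, 323 and 312 counts in controls, fell to 183, 193 and 153 (log2 fold change -0.78, SE 0.13, edgeR adjusted p = 0.005). Without *Fbln1* and *Pdgfra* the remaining 10 markers summed to 30, 20 and 29 counts in controls and 201, 121 and 44 in mutants, *Dcn* among them (3, 2 and 1 against 66, 34 and 14 counts). The keratocyte protein gene *Kera* was at most 0.07 FPKM in any sample. The part of these cells in the result was not tested.

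Over the other antiangiogenic genes, 6 of 10 tested (60%) were called higher and 0 lower, against 7.82% and 5.42% of all genes, with a median log2 fold change of 1.48. *Sparc*, a matrix protein that binds VEGF and collagen, was at 6.2 ± 0.55 FPKM in controls and 24.9 ± 3 in mutants (SD, n = 3; log2 fold change 2.01, SE 0.11, edgeR adjusted p = 1.1e-05). *Cxcl14*, a chemokine made by epithelia, rose by 1.66 on the log2 scale (SE 0.21, edgeR adjusted p = 0.00092). *Timp1*, a metalloproteinase inhibitor, had 2, 0 and 1 counts in controls against 92, 56 and 37, and *Adamts1*, a secreted protease, 0, 0 and 1 against 17, 11 and 17, so their fold changes rest on very few control counts. Both passed the count filter only through the mutants, where they are high, so their calls and their weight in the share and the median are not independent of the filter. *Thbs2* (9, 5 and 7 counts in controls against 23, 15 and 14) passed it in the same way. It was not called but enters the share and the median. Without the filter, over all 17 listed genes, 7 were called higher and 0 lower, with a median of 1.30. *Timp3*, an inhibitor of metalloproteinases and of VEGFR2, was at 5.66 ± 2 FPKM in controls and 3.42 ± 2 in mutants and was not called. Of the keratocyte and fibroblast markers 4 were called higher and 1 lower without the filter, as given for *Serpinf1*. *Sparc* and *Timp1* are abundant in fibroblasts, and the part of these cells was not tested. Without mutant sample 1 the antiangiogenic list had 7 genes called. A broader list did not show this rise. Of 47 tested genes annotated to negative regulation of angiogenesis, 10.6% were called higher and 8.51% lower, with a median log2 fold change of -0.05.

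Over 20 other angiogenic ligands, 15 were tested, 6 (40%) were called higher, 2 lower and 7 not, with a median log2 fold change of 0.34. *Sphk1*, the kinase that makes sphingosine 1-phosphate, rose by 1.59 on the log2 scale (SE 0.16, edgeR adjusted p = 0.0003), and *Pdgfb*, a recruiter of pericytes, rose by 1.35 (SE 0.19, edgeR adjusted p = 0.0016). *Il1a*, an epithelial alarm cytokine, rose by 0.55 (SE 0.09, edgeR adjusted p = 0.0041). *Edn1*, which encodes the vasoconstrictor endothelin 1, went the other way, from 9.77 ± 1 to 5.88 ± 0.12 FPKM (SD, n = 3; log2 fold change -0.74, SE 0.1, edgeR adjusted p = 0.0018). The other called genes were *Cyr61*, *Cxcl1* and *Lcn2*, higher, and *Ereg*, lower. *Cxcl1* (5, 3 and 6 counts in controls against 20, 16 and 14) and *Lcn2* (7, 2 and 7 against 126, 13 and 52) passed the count filter only through the mutants, which bears on the share and the median in the same way. Without the filter, over all 20 listed genes, 7 were called higher and 2 lower, with a median of 0.21. The same count of 8 called was found without mutant sample 1. Immune markers gave 1 call of 4 tested, *S100a9*. Without the filter, over all 12 listed immune markers, 2 were called higher and 0 lower. *Lyz2*, below the filter, had 0, 0 and 1 counts in controls and 24, 13 and 4 in mutants. Without *Itgam*, *Cd68*, *S100a9* and *Ly6g* the other 8 summed to 26, 16 and 17 counts in controls and 58, 31 and 29 in mutants. The part of immune cells in the cytokine results was not tested.

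Since *Vegfa*, *Adm* and *Angptl4* are targets of hypoxia-inducible factors, 30 other genes of that response were compared. All 30 were tested, 16 (53.3%) were called higher, 2 lower and 12 not, and the median log2 fold change was 0.50. *Eno1*, a glycolytic enzyme, rose by 0.73 on the log2 scale (SE 0.077, edgeR adjusted p = 0.00039), *Aldoa*, another, by 0.58 (SE 0.077, edgeR adjusted p = 0.0012), and *P4ha1*, which hydroxylates collagen, by 1.01 (SE 0.13, edgeR adjusted p = 0.00093). *Slc2a1*, the glucose transporter GLUT1, was at 36.6, 30.7 and 30.4 FPKM in controls and at 114, 73.5 and 66.3 in mutants, with no overlap and a log2 fold change of 1.38 (SE 0.19, edgeR adjusted p = 0.0014). Chosen after their values were seen, *Hif1a* rose by 0.66 (SE 0.1, edgeR adjusted p = 0.003) while *Epas1*, which encodes HIF-2α, fell by 0.51 (SE 0.12, edgeR adjusted p = 0.022). *Pdk1*, a hypoxia target that restrains pyruvate oxidation, fell by 0.30, and *Egln3*, a target at 351 ± 27 and 341 ± 14 FPKM (SD, n = 3), was not called (log2 difference -0.04, SE 0.076). Of 26 of these genes with a promoter in the RefSeq table, 23 held a hypoxia core in at least 1 promoter. The background of 38.6% counts single promoters, while a gene can have several. The share per gene over all genes was not computed, so no excess of cores was measured.

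**Figure D4:**
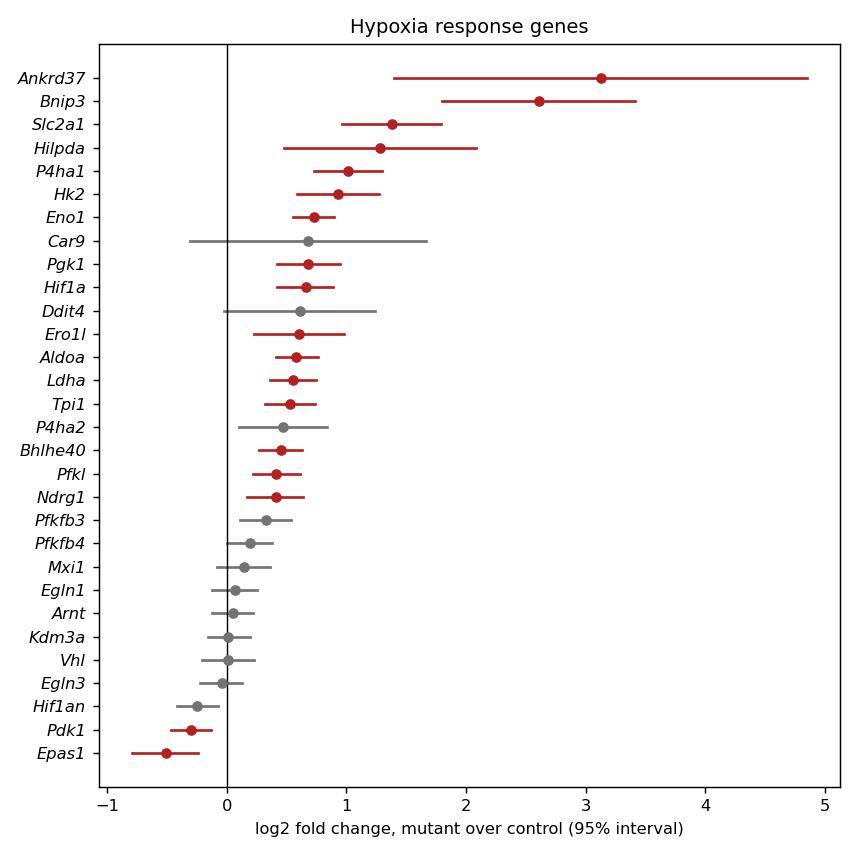
Log2 fold change of mutant over control for the 30 hypoxia response genes other than members, ordered by size, with 95% intervals from the edgeR fit (n = 3 per group). Red marks an adjusted p under 0.05, with 16 of the 30 to the right of 0 and 2 to the left.

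In FPKM, the order of the members in controls was *Vegfb*, *Angptl4*, *Thbs1*, *Vegfa*, *Vegfd*, *Adm*, *Serpinf1*, *Flt1* and *Pgf*. The neighbours *Thbs1* and *Vegfa*, *Vegfd* and *Adm*, and *Serpinf1* and *Flt1* had overlapping sample ranges there. In mutants the order was *Vegfb*, *Adm*, *Vegfa*, *Angptl4*, *Thbs1*, *Vegfd*, *Serpinf1*, *Pgf* and *Flt1*, and neighbours among the first 4 overlapped, as did *Vegfd* with *Serpinf1* and *Pgf* with *Flt1*. *Adm* overlapped with *Vegfd* in controls and with *Vegfa* in mutants. Over all 6 samples, the genes whose log2 CPM followed *Vegfa* most closely were *Fscn1*, *Tdh* and *Tmem251* (Pearson r 0.9960, 0.9954 and 0.9941), and those nearest to *Adm* were *BC100530*, *Sprr2f* and *Dgat1* (0.9982, 0.9974 and 0.9974). *BC100530* and *Sprr2f* belong to families of near-identical copies, so their counts are uncertain. These r are over 6 samples in 2 genotypes, share the same libraries, and are given as a description.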

How the data were processed

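Bulk RNA-seq of the separated corneal epithelium was available for 3 control and 3 mutant samples; groups came from the labels. Total RNA was depleted of rRNA and, per the study's methods, read as single-end 50 base reads on a BGISEQ-500, though the labels name an Illumina TruSeq protocol. The authors filtered reads with SOAPnuke 1.5.2, aligned them with Bowtie2 2.2.5 and deposited RSEM 1.2.12 expected counts and FPKM per gene. The labels name mm9, but the deposited coordinates lie on GRCm38 accessions and are given as such. The deposited table also holds the authors' own log2 ratios and p-values between groups, which were not used. In R 4.3.3, expected counts were rounded (31.5 to 32.2% were not whole) and tested with edgeR 4.0.16 (TMM, filterByExpr, count minimum 10, total minimum 15), with genotype as the only term. The study's methods use DEGseq, which has no term for spread between samples. Intervals of fold changes are per gene at 95%, unadjusted; exact count intervals cover counting error only. FPKM gave levels; shares and ratios had exact two-sided permutation tests. Alternatives were DESeq2 1.42.0, limma 3.58.1 on log2(FPKM + 1) and log2(FPKM + 0.1), other scalings and filters, a replicate block and leaving out each sample; the script was tested on simulated data. Named genes were all members, up to 4 tested genes per list with the smallest p, the 2 highest or any called marker per marker list, and the 3 genes nearest in r to each called member; names outside this rule were chosen after their values were seen. The members and lists were chosen with earlier results of these data known, and p-values measure the spread between these samples, called independent by the study. Promoters came from RefSeq (GRCm38.p6); overlaps came from GENCODE M21.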

Additional observations from a re-analysis of the deposited data

How the results depend on the processing

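*Vegfa* and *Adm* kept their direction and their calls under all 14 alternatives, with log2 fold changes of 1.15 to 1.68 and 2.33 to 4.01 and adjusted p up to 0.01 and 0.013 (edgeR, DESeq2 or limma). Members called numbered 2 or 3, the third being *Vegfb* without mutant replicate 3. *Thbs1* (0.25 to 0.51), *Angptl4* (0.17 to 0.39) and *Vegfd* (-0.18 to 0.26) were called under none. Members past the study's thresholds numbered 2 with DESeq2, without a count filter and with a replicate block, 0 with limma on log2(FPKM + 1), and 0 to 1 with 1 sample left out (0 without any 1 control sample). Genes past those thresholds numbered 342 with DESeq2, 114 with limma on log2(FPKM + 1) and 36 to 193 with 1 sample left out. Genes called numbered 857 to 1869 with 1 sample left out, lowest without control replicate 2; the cause was not tested. The rise in the *Vegfa* share was 28.5 percentage points from counts, which are not scaled by length, and 15.3 to 22.3 with 1 sample left out. Hypoxia genes called higher numbered 11 to 17 of 30 over the alternatives, chosen after seeing the data.

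Replicate numbers were not shown to pair samples: deviations of same-numbered samples correlated at 0.02, 0.05 and -0.05. With the replicate block, 1419 genes, 2 members and 15 hypoxia genes were called. Depth limits *Pgf*, *Flt1* and *Serpinf1*, at 0 to 16 counts per sample.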

Other observations

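Broader gene lists, taken from the annotation terms in the deposited table after the data were seen and with the members left out, gave the following counts. Of 77 tested genes annotated to positive regulation of angiogenesis, 24 (31.2%) were called higher and 3 lower, and the same counts were found without mutant sample 1. Of 47 annotated to negative regulation of angiogenesis, 5 (10.6%) were called higher and 4 lower, and 7 and 3 without mutant sample 1. The background was 7.82% higher and 5.42% lower. Median log2 fold changes of the positive and negative lists were 0.13 and -0.05. The shorter antiangiogenic list above, at 60% higher and a median of 1.48, differed from the annotated negative list. *Plau*, which encodes the protease urokinase, is annotated to the response to hypoxia and to neither of these terms. It was chosen after its values were seen and rose by 1.91 on the log2 scale (SE 0.2, edgeR adjusted p = 0.00039). Of the genes annotated to negative regulation, *Foxc1*, a transcription factor needed for the avascular cornea, fell by 0.63 on the log2 scale (SE 0.089, edgeR adjusted p = 0.0018).

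Of 143 tested genes annotated to the response to hypoxia, 21 (14.7%) were called higher and 10 (6.99%) lower, with a median log2 fold change of 0.03. The shorter list of 30 hypoxia genes above had 53.3% higher and a median of 0.50. Of 84 in HIF-1 signaling, 18 (21.4%) were higher and 6 (7.14%) lower, *Rela* itself among them, and of 53 in VEGF signaling, 5 and 4. The medians of these last lists were 0.05 and -0.03.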
